A study of Mus musculus with 4 samples.

Results

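Primitive endoderm genes were examined in mouse embryonic stem cells (ESCs) in which Cnot1 had been silenced. Cnot1 encodes the scaffold subunit of CCR4-NOT, the complex that removes poly(A) tails from mRNAs and starts their decay. The genes were 9 regulators and markers of the primitive endoderm, chosen by name out of 50559 genes listed: the transcription factors Gata4, Gata6, Sox7, Sox17, Foxa2 and Hnf4a, the receptor gene Pdgfra, the endocytic adaptor gene Dab2 and the matrix gene Sparc. Both groups were ESCs labelled as the E14 line, grown on gelatin in medium with serum replacement and 1000 U/ml leukemia inhibitory factor, and the study's methods describe its ESCs as carrying a reporter in which the MERVL promoter drives tdTomato. The 2 control libraries came from cells given a non-targeting siRNA (siNT) and the 2 knockdown libraries from cells given siRNA against Cnot1 (siCnot1), both at 150 nM and for 48 h. The study's methods list more than 1 siRNA against Cnot1 without saying which was used for these libraries, so an effect of the siRNA itself and an effect of lower Cnot1 cannot be told apart here. The study's interest was whether CNOT1, as a partner of the m6A reader YTHDF2, restrains the 2-cell-like state of ESCs.

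The primitive endoderm is the extraembryonic layer that separates from the pluripotent epiblast inside the blastocyst. FGF4 made by epiblast cells acts through FGF receptors to favour GATA6 over NANOG, after which SOX17, GATA4 and SOX7, and later HNF4A, are switched on, and PDGFRA marks the committed cells. Its descendants are the parietal endoderm, which lays down a thick basement membrane, and the visceral endoderm, which takes up and transports nutrients. ESC cultures held in leukemia inhibitory factor can contain a few cells that express these genes. In RNA from whole cultures, more such cells and more RNA per cell cannot be told apart.

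Each library held between 32135824 and 32557440 counts, and a count of 3, taken as the floor, corresponded to 0.0921 to 0.0934 CPM, counts scaled to a library total of 1e+06. Cnot1 itself (chromosome 8, 96445559 to 96534741, minus strand) had 28397 and 30903 counts in the siNT libraries and 6188 and 6425 in the siCnot1 libraries. Its level fell by 2.33 on the log2 scale (SE 0.06, edgeR quasi-likelihood test, adjusted p = 2.37e-18), so both pairs of libraries matched their labels. Of the 12 ESC markers, Nanog stood at 1130 and Pou5f1 at 1070 normalized CPM in siNT, where normalized means scaled with TMM factors. Their list had 8 members lower and 0 higher in siCnot1, but 4 lower and 1 higher with library totals, 6 lower with a replicate block, and 3 to 6 lower when 1 library was left out. Its summed level ranged from 6660 to 6730 normalized CPM in siNT and from 5630 to 5860 in siCnot1. Mitochondrial genes took 1.17% and 1.40% of the counts in siNT and 2.11% and 1.76% in siCnot1, and the part of this difference in the results below was not tested. Positions are those the count table lists, which lie on GRCm39.

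Among the 9 genes, Pdgfra and Dab2 rose after Cnot1 knockdown, each to 2.02 times its siNT level, and the transcription factors of the lineage did not pass the test. Of the 8 genes with enough counts to be tested, 2 were called higher and 0 were called lower, with 0.05 as the limit on the adjusted p (edgeR quasi-likelihood test, Benjamini-Hochberg adjustment over 18144 genes). Over all genes tested, 15.0% were called higher and 14.7% lower, 2719 and 2668 genes. With libraries scaled to their totals alone, that split was 3989 higher and 1567 lower. The same 2 genes passed the thresholds the study used, an unadjusted p of at most 0.05 with a log2 fold change of at least 1, which 6.18% of all genes passed upward and 1.80% downward. Both lay close to that fold threshold, at 1.02 on the log2 scale. Among the 4555 genes whose siNT level lay between the lowest and the highest of the 7 less abundant genes tested (0.56 to 4.14 normalized CPM, a range set after the values were seen), 13.9% were called higher. Those shares are the background against which 2 of 8 is to be read.

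Pdgfra encodes the receptor for platelet-derived growth factor that supports survival of primitive endoderm cells. It lies on chromosome 5 (75311988 to 75358867, plus strand, 27 exon blocks). It had 108 and 105 counts in the siNT libraries and 251 and 211 in the siCnot1 libraries, or 3.47 and 3.35 against 7.49 and 6.30 normalized CPM. The lower siCnot1 library lay well above both siNT libraries, so the groups did not overlap. The log2 fold change was 1.02 (SE 0.20, 95% confidence interval 0.60 to 1.43, edgeR adjusted p = 0.000436), a 2.02-fold rise with an interval of 1.52 to 2.69. Without siNT replicate 1 the change was 1.04 and the call was lost. Without siNT replicate 2 the change was 0.99 and the call held. The microRNA gene Mir7025 lies within Pdgfra on the same strand, shares 30 exon bases with it and had 0 counts in all 4 libraries.

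Dab2 encodes a clathrin adaptor that carries receptors of the LRP2 and cubilin type into endocytic vesicles and is needed for endoderm to organise as an epithelium. It lies on chromosome 15 (6329269 to 6470196, plus strand, 18 exon blocks). It had 129 and 130 counts in siNT and 279 and 283 in siCnot1, or 4.14 in both siNT libraries against 8.32 and 8.45 normalized CPM. Replicates of a group nearly coincided, and the groups lay far apart. The log2 fold change was 1.02 (SE 0.18, 95% confidence interval 0.65 to 1.39, edgeR adjusted p = 0.000139), a 2.02-fold rise with an interval of 1.56 to 2.62. The call by adjusted p held when any one library was left out, with changes between 0.999 and 1.024. The lowest, without siCnot1 replicate 2, lay just under the study's log2 threshold of 1. Genes lying within the Dab2 locus on the other strand shared no exon bases with it.

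Sparc encodes a secreted, calcium-binding matrix glycoprotein that parietal endoderm makes in large amounts, and it is also expressed by many other cells. It lies on chromosome 11 (55284985 to 55310906, minus strand, 10 exon blocks). It had 11542 and 11143 counts in siNT and 12180 and 11956 in siCnot1, or 371 and 355 against 363 and 357 normalized CPM. The 4 libraries intermingled. The log2 fold change was -0.01 (SE 0.05, 95% confidence interval -0.12 to 0.10, edgeR adjusted p = 0.907), so a change as large as that of Pdgfra or Dab2 lay outside the interval. Its sign was positive with upper-quartile scaling (0.0083) and with library totals (0.096), and it was not called under either.

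**Figure D1:**
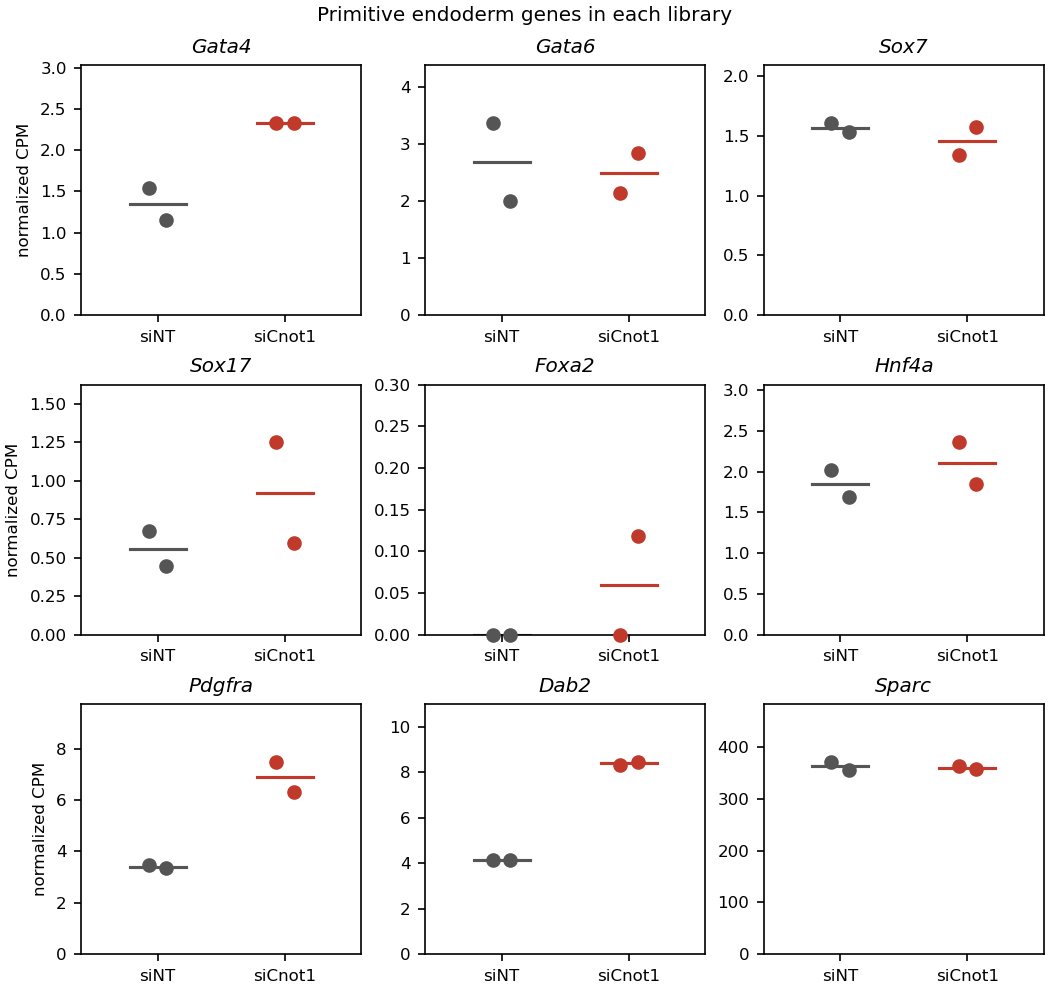
Normalized CPM of each of the 9 primitive endoderm genes in the 4 libraries, with 1 panel per gene and its own linear axis from 0. Points are libraries, siNT in grey and siCnot1 in red, and bars are group means. Pdgfra and Dab2 separated by group at about 2.02 times the siNT level, Gata4 separated by less, and the libraries of the other genes overlapped.

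The sequences around the starts of Dab2 and Pdgfra are shown because these were the 2 genes that rose together, and GATA factors, themselves among the genes examined, bind short GATA motifs. RefSeq promoter windows on GRCm38.p6, from 250 bases before to 50 after a start, were matched for 5 of the 9 genes, giving 9 windows because some genes have several starts. The motif GATAA was searched on both strands, as GATAA or TTATC, and stands in capitals.
Dab2, upstream start, chr15:6299539-6299838, plus strand: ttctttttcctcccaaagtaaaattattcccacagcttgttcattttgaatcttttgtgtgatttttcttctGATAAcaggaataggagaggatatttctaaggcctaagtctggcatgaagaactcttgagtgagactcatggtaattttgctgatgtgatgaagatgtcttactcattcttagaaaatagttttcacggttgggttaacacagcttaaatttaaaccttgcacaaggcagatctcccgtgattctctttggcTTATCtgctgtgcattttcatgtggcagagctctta
Dab2, downstream start, chr15:6386498-6386797, plus strand: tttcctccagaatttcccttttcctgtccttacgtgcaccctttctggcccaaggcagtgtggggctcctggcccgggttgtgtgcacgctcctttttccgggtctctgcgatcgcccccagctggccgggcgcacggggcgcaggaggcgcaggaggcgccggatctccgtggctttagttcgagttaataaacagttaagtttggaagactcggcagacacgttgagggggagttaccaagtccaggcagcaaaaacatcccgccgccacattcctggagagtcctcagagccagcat
Pdgfra, chr5:75152001-75152300, plus strand: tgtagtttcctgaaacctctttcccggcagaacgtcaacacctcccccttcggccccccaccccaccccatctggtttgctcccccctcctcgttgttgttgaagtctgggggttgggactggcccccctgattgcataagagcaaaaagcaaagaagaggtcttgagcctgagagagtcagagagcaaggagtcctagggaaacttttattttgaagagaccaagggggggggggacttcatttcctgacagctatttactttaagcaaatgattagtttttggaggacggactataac
The upstream Dab2 window held 2 matches, beginning at bases 73 and 265 of the window, 1 on each strand. The downstream Dab2 window and the Pdgfra window held 0. Over the genes matched, 3 of 9 windows held GATAA, from Foxa2, Hnf4a and Dab2, against 25.4% of all 32851 windows in the same table. The SOX motif ACAAT, also searched on both strands, was in 1 of the 9 windows, from Hnf4a, against 31.0% of the windows used. These counts describe the letters in the windows and do not show binding.

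CCR4-NOT is brought to mRNAs by RNA-binding proteins that read short elements in 3′ UTRs, among them Pumilio proteins, which bind TGTANATA, and proteins that bind the AU-rich element TATTTAT. Both elements were searched on the transcript strand of GENCODE M21 3′ UTRs (GRCm38) for the same 5 genes. Gata4, Gata6, Sox7 and Sox17 were not searched, so the elements draw no contrast between genes that rose and genes that did not. The 3′ UTR of Pdgfra, at 3115 bases, held 2 Pumilio elements, shown here in capitals within their flanks because Pdgfra was one of the genes that rose.
Pdgfra, element at base 351 of the 3′ UTR: cattgtaattaTGTAAATAactcttaaccg
Pdgfra, element at base 2763 of the 3′ UTR: atacatcgataTGTATATAtctgttgctat
Of 1012 3′ UTRs within 10% of that length, 46.1% held at least 1 Pumilio element. The 3′ UTR of Dab2, at 1936 bases, held neither element, and 33.1% of 1364 3′ UTRs of like length held a Pumilio element and 40.5% an AU-rich one. Sparc, at 1085 bases, held neither, nor did Hnf4a. Foxa2 held 1 AU-rich element in 637 bases, and 18.4% of 1046 3′ UTRs of like length did.

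The levels of the 9 genes were compared per length, as length-scaled TPM values computed from the counts and the listed exon lengths. In siNT, Sparc stood at 336 ± 5.34 TPM (SD, n = 2), above 97.4% of the genes tested. The other 8 were between 0 and 1.98 TPM. Gata6 came next at 1.98 ± 0.69 TPM and then Dab2 at 1.61 ± 0.02 TPM, and the ranges of these neighbours overlapped. Sox7 followed at 1.17 ± 0.02 TPM, and then Hnf4a, Pdgfra and Gata4 at 0.965, 0.898 and 0.888 TPM, each overlapping its neighbour in that order. Sox17 was lower at 0.240 ± 0.066 TPM, and Foxa2 was at 0. In siCnot1, Dab2 stood at 3.63 ± 0.01 TPM and Pdgfra at 2.03 ± 0.27 TPM, beside 2.06 ± 0.38 TPM for Gata6. The TPM of Sparc was 373 ± 9.45 in siCnot1, above siNT on that scale, while the normalized CPM values overlapped. TPM carries no TMM factor.

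Summed levels depended on Sparc. In normalized CPM (mean ± SD, n = 2), the sum over all 9 genes went from 379 ± 12.7 in siNT to 385 ± 5.29 in siCnot1, a ratio of 1.02. Without Sparc it was 15.6 ± 1.78 in siNT and 24.6 ± 0.83 in siCnot1, a ratio of 1.58. Pdgfra and Dab2 together gave 7.55 in siNT and 15.3 in siCnot1, whereas the 6 transcription factors gave 8.02 ± 1.69 and 9.37 ± 0.08, a ratio of 1.17.

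Gata4 encodes a zinc-finger factor that activates endoderm genes downstream of GATA6, and it was the transcription factor with the clearest separation. It lies on chromosome 14 (63436363 to 63509161, minus strand). It had 48 and 36 counts in siNT and 78 and 78 in siCnot1, or 1.54 and 1.15 against 2.33 and 2.33 normalized CPM. Both siCnot1 libraries lay above both siNT libraries, as they did for 3 of the 8 genes tested and for 32.7% of all genes tested. The log2 fold change was 0.79 (SE 0.32, 95% confidence interval 0.12 to 1.46) with an edgeR p of 0.0226 before and 0.0694 after adjustment, so it did not pass. With library totals as the scaling it did, at 0.897 with an adjusted p of 0.0387, and in none of the other 11 alternatives.

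Gata6, the factor that starts the primitive endoderm programme, had 105 and 63 counts in siNT and 72 and 95 in siCnot1. These were 3.37 and 2.01 against 2.15 and 2.84 normalized CPM, and the siNT libraries enclosed both siCnot1 libraries. The log2 fold change was -0.11 (SE 0.29, 95% confidence interval -0.72 to 0.50, edgeR adjusted p = 0.826). The interval runs from 0.607 to 1.41 times the siNT level and so leaves out the 2.02-fold rise of Pdgfra and Dab2. Leaving out siNT replicate 1 moved it to 0.305 and leaving out siCnot1 replicate 1 to 0.073. The antisense gene Gata6os shares 58 exon bases with Gata6 on the other strand and had 1, 1, 2 and 2 counts.

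Sox17 and Sox7 encode related HMG-box factors of the endoderm. Sox17 lies on chromosome 1 (4561151 to 4567624, minus strand), and Sox7 on chromosome 14 (64181155 to 64188181, plus strand). Sox17 had 21 and 14 counts in siNT and 42 and 20 in siCnot1, or 0.674 and 0.446 against 1.25 and 0.597 normalized CPM. Only siCnot1 replicate 1 stood above the siNT libraries, and the log2 fold change was 0.72 (SE 0.54, 95% confidence interval -0.39 to 1.83, edgeR adjusted p = 0.345). That interval held both 0 and the change of Dab2. Sox7 had 50 and 48 counts in siNT and 45 and 53 in siCnot1, 98 in each group, or 1.61 and 1.53 against 1.34 and 1.58 normalized CPM. The siCnot1 libraries lay on either side of the lower siNT library, and the log2 fold change was -0.10 (SE 0.35, 95% confidence interval -0.82 to 0.62, edgeR adjusted p = 0.866), turning to 0.0058 with library totals.

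Hnf4a and Foxa2 act later, in the visceral endoderm and other endoderm epithelia. Hnf4a, a nuclear receptor gene on chromosome 2 (163348731 to 163414827, plus strand), had 63 and 53 counts in siNT and 79 and 62 in siCnot1, or 2.02 and 1.69 against 2.36 and 1.85 normalized CPM. The groups overlapped, and the log2 fold change was 0.18 (SE 0.31, 95% confidence interval -0.46 to 0.82, edgeR adjusted p = 0.717). Its antisense gene Hnf4aos had 0, 0, 0 and 2 counts. Foxa2, a forkhead factor gene also on chromosome 2 (147884797 to 147888889, minus strand), had 0 counts in both siNT libraries and in siCnot1 replicate 1, and 4 in siCnot1 replicate 2. A count of 0 allows up to 0.0929 and 0.0921 CPM in the siNT libraries, for counting error only. Foxa2 stayed below the minimum of the test, and no fold is given because its level was at or near the floor of 3 counts.

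**Figure D2:**
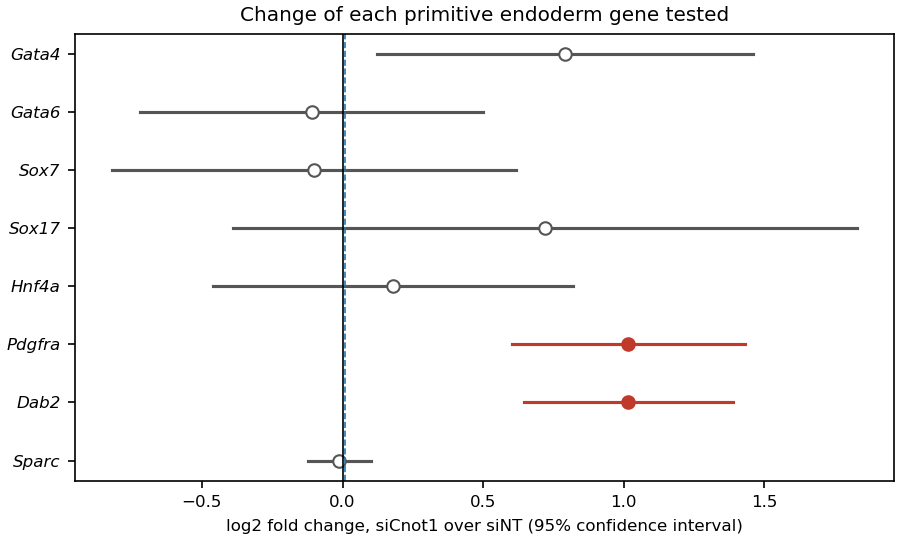
Log2 fold change of siCnot1 over siNT for the 8 primitive endoderm genes tested, with 95% confidence intervals from the edgeR fit as bars. Red points passed an adjusted p of 0.05 and open grey points did not, and the dashed blue line is the median of all genes tested (0.0084). The intervals of Pdgfra and Dab2 start at 0.60 and 0.65, that of Sparc is the narrowest, and those of the less abundant transcription factors are wide.

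Over the 8 genes tested the median log2 fold change was 0.45, with 5 above 0 and 3 below, beside a median of 0.0084 over all genes and 0.082 over the genes of like siNT level. For the 5 transcription factors tested it was 0.18, with 0 called. Counts of members that passed a filter and their median are given as descriptions.

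Genes that the derivatives of the primitive endoderm use were then read as lists. For each list that follows, the background over all genes tested was 15.0% called higher and 14.7% lower. With library totals it was 3989 genes higher and 1567 lower. The minimum count could be met in siCnot1 libraries, so some sparse genes entered the tallies and medians mainly through that group. Pth1r and Thbd here, Cubn and Amn among the uptake genes and Krt7 among the trophectoderm markers were among them. Of 18 basement membrane and parietal endoderm genes, all tested, 9 were called higher and 2 lower, and the median change on the log2 scale was 0.38. By the study's thresholds 2 passed upward, Plat and Pth1r, and 0 downward, beside 6.18% and 1.80% of all genes. The shares over all genes are not matched for level, and abundant genes were called at small changes, such as 0.18 for Lamc1 and for Hspg2. When 1 library was left out, 4 or 5 were called higher and 0 lower, and the median lay between 0.25 (without siNT replicate 2) and 0.50. With library totals 11 were called higher and 0 lower. Collagen IV, the network-forming collagen of basement membranes, was among them. Col4a2 had 737 and 647 counts in siNT and 1350 and 1316 in siCnot1, a log2 fold change of 0.85 (SE 0.10, edgeR adjusted p = 9.08e-07) that held without any one library. Other calls were in sparsely counted genes. Pth1r, the receptor for parathyroid hormone-related protein in parietal endoderm, had 2 and 14 counts in siNT and 32 and 52 in siCnot1. It reached the minimum count in both libraries of siCnot1 but in only 1 of siNT, so it is given by its counts, with no fold. Plat, the gene of tissue plasminogen activator, had 12 and 17 counts against 39 and 50 (log2 fold change 1.51, SE 0.48). Pth1r was no longer called without siNT replicate 1 or without either siCnot1 library, with adjusted p-values of 0.17, 0.0504 and 0.207, and Plat without any one of the 4 libraries, at 1.28 to 1.77. Krt19, a keratin gene of epithelia, fell from 120 and 88 counts to 70 and 63 (-0.75, SE 0.28), and Nid1, which links laminin to collagen IV, from 12053 and 12114 to 11842 and 11092 (-0.18, SE 0.06). Both calls were lost without any one library, Krt19 at -0.96 to -0.50 and Nid1 at -0.23 to -0.14, and with library totals, at -0.64 and -0.07.

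Of 13 visceral endoderm uptake and transport genes, 11 were tested, of which 5 were called higher and 2 lower, with a median of 0.40. By the study's thresholds 3 passed upward, sparse Cubn among them, and 0 downward. The median was 0.18 without siCnot1 replicate 1, with 3 higher and 0 lower, and without siNT replicate 1 only 2 were called higher and 0 lower. With library totals 5 were higher and 0 lower. Lrp2 and Cubn encode megalin and cubilin, the receptor pair whose uptake DAB2 serves. Lrp2 had 1175 and 1317 counts in siNT and 3303 and 3178 in siCnot1, a log2 fold change of 1.28 (SE 0.08, edgeR adjusted p = 5.13e-11) that held without any one library. Cubn had 2 and 14 counts against 34 and 39, and since it too reached the minimum count in only 1 siNT library, no fold is given. Its call was lost without siNT replicate 1 or without either siCnot1 library, with adjusted p-values of 0.178, 0.121 and 0.18. Apob, the structural apolipoprotein of secreted lipoproteins, had 14 and 14 counts against 69 and 56 (2.05, SE 0.43) and just missed the threshold without siNT replicate 1, with an adjusted p of 0.0552. Mttp, whose product loads lipid onto that apolipoprotein, fell instead, from 246 and 251 counts to 162 and 218 (-0.49, SE 0.18). Apom, another apolipoprotein gene, fell from 179 and 143 to 79 and 136 (-0.68, SE 0.25). Without siNT replicate 1, siNT replicate 2 or siCnot1 replicate 1 neither fall was called, with Mttp at -0.50, -0.48 and -0.29 and Apom at -0.51, -0.84 and -0.35, nor with library totals, at -0.38 and -0.58. The abundant visceral endoderm products Ttr and Apoa1 had at most 2 counts in any library, and Afp had 19 and 14 in siNT against 11 and 18 in siCnot1. Apoe, a further apolipoprotein gene of the list, was called higher, with 5507 and 5034 counts in siNT and 11525 and 9156 in siCnot1 (0.87, SE 0.08).

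Of 11 visceral endoderm patterning genes, 6 were tested, of which 2 were called higher and 1 lower, with a median of 0.01 that ranged from -0.096 without siCnot1 replicate 1, with 1 called higher, to 0.348 without siNT replicate 2, also with 1. Foxa1, a forkhead factor related to FOXA2, rose from 39 and 39 counts to 127 and 111, a log2 fold change of 1.51 (SE 0.29, edgeR adjusted p = 0.00033) that held without any one library. Lefty1, a secreted Nodal antagonist, rose from 239 and 195 to 402 and 361 (0.71, SE 0.16), and was not called without siNT replicate 2 (0.57) or siCnot1 replicate 1 (0.63). Otx2, a homeobox factor of anterior visceral endoderm and of epiblast, fell from 481 and 502 to 297 and 336 (-0.74, SE 0.13), also without any one library. The patterning gene Cer1 was at 0 in all 4 libraries.

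The FGF pathway that feeds the primitive endoderm decision showed smaller changes. Of its 13 genes, all tested, 3 were called higher and 3 lower, and their median was -0.0036. With library totals 5 were called higher and 1 lower, with a median of 0.103, and with 1 library left out 2 were higher and 0 to 2 lower. Fgf4, the ligand, rose by 0.33 on the log2 scale (SE 0.06), from 4949 and 4715 counts to 6554 and 6502. Ptpn11, the gene of the phosphatase SHP2, which acts downstream of the receptor, rose by 0.47 (SE 0.06), and both of these calls held without any one library. The receptor gene Fgfr1 was higher by 0.19 (SE 0.06) and was not called without any one of the 4 libraries, at 0.16 to 0.22, while Fgfr2, the other receptor of the lineage, had 131 and 171 counts against 127 and 167. Map2k1, a kinase gene of the pathway, fell by 0.19 on the log2 scale (SE 0.06), from 4451 and 4326 counts to 4225 and 4016. It was not called without any one library (-0.23 to -0.16), nor with library totals (-0.08).

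Paralogs, ligands and cofactors of the 9 genes numbered 15, of which 11 were tested, with 3 called higher, 0 lower and a median of -0.10. That median had no stable sign, at 0.0038 with library totals and at 0.261 with 1 called higher without siNT replicate 1. Without siNT replicate 2, 1 was likewise called higher. Pdgfc, a ligand of PDGFRA, rose from 323 and 417 counts to 1204 and 1174, a log2 fold change of 1.58 (SE 0.12, edgeR adjusted p = 1.25e-09) that held without any one library. Pdgfa, the ligand usually named for this receptor in the embryo, had 1615 and 1563 counts against 1683 and 1489 (-0.10, SE 0.09, adjusted p = 0.405). Pdgfrb, the related receptor, rose from 257 and 257 to 530 and 415 (0.78, SE 0.15), and the call was lost without siNT replicate 1 or 2, at 0.78 and 0.77. Dab1, the paralog of Dab2, rose by 0.30 (SE 0.11), which was not called without siNT replicate 1 (0.26), siNT replicate 2 (0.32) or siCnot1 replicate 2 (0.10). The GATA paralogs Gata1, Gata2 and Gata3 had log2 fold changes of -0.62, -0.60 and -0.61, and none passed the test.

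**Figure D3:**
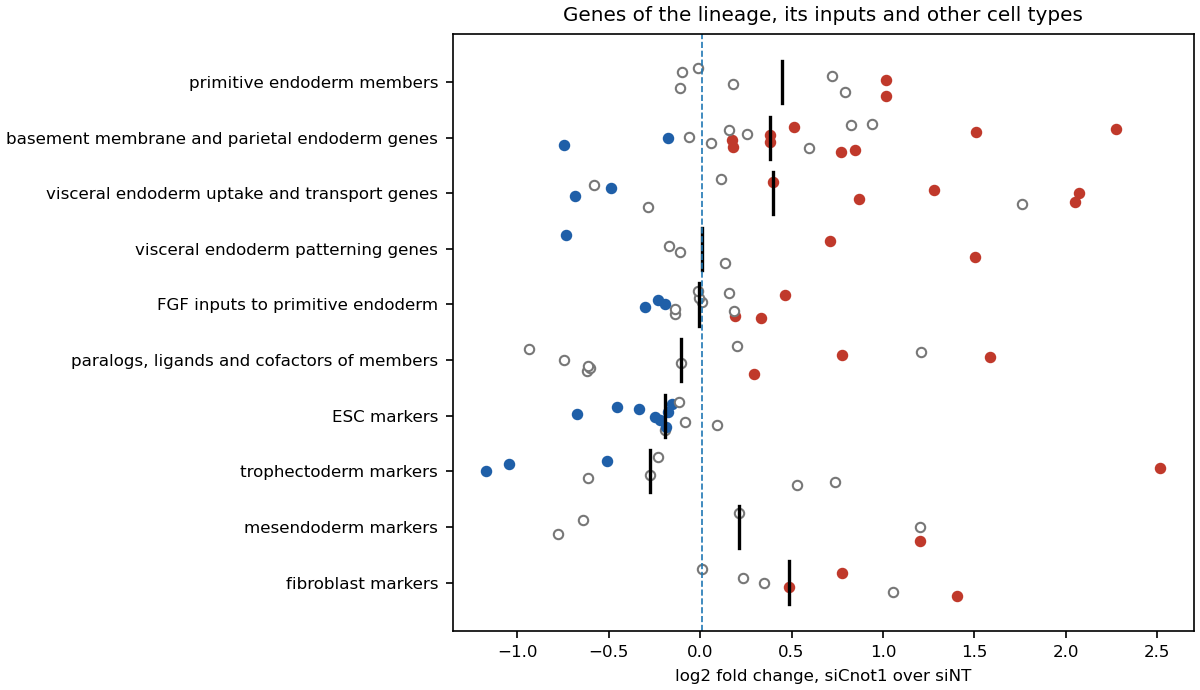
Log2 fold change of siCnot1 over siNT for each gene tested in the primitive endoderm set and in 9 further lists. Red points were called higher, blue points lower and open points neither at an adjusted p of 0.05, black bars are list medians, and the dashed blue line is the median of all genes (0.0084). Calls in the basement membrane list (9 higher, 2 lower) and the uptake list (5 and 2) were mostly to the right, and those among ESC markers (0 and 8, or 1 and 4 with library totals) all to the left.

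Pdgfra, Dab2 and Sparc are also expressed outside the primitive endoderm, so genes listed as markers of other cells were read beside them. Whether these genes, keratin genes among them, are limited to the cells named was not tested. Of 12 fibroblast markers, 7 were tested, of which 3 were called higher and 0 lower, with a median of 0.49. Without siNT replicate 1, siNT replicate 2 or siCnot1 replicate 1 the calls were 0, 1 and 2, and without the last the median was 0.289. The summed level was 52.4 and 50.5 normalized CPM in siNT and 77.0 and 65.6 in siCnot1. Of the list, Col3a1 and Dcn were at 0 in all 4 libraries, and Lum and Twist2 had at most 2 counts. Thy1 had 233 and 318 counts in siNT and 305 and 291 in siCnot1, and Fbn1 had 359 and 310 against 474 and 439. Neither Thy1 nor Fbn1 was called. Col1a1 rose from 39 and 48 counts to 116 and 131 (1.40, SE 0.28), except that it was not called without siNT replicate 1 (1.26), and Col5a1 rose by 0.49 (SE 0.12) but was not called without siNT replicate 1 (0.62), siNT replicate 2 (0.36) or siCnot1 replicate 1 (0.33). Of 10 trophectoderm markers, 9 were tested, with 1 higher, 3 lower and a median of -0.27, and with 1 library left out 0 were higher and 1 to 3 lower. Krt8 fell from 393 and 410 counts to 210 and 207 (-1.04, SE 0.15), Krt18 from 160 and 157 to 99 and 52 (-1.17, SE 0.27) and Tead4 from 1698 and 1752 to 1206 and 1397 (-0.51, SE 0.09). Krt7 was called higher, with 2 and 4 counts in siNT and 16 and 22 in siCnot1, but its siNT libraries lay at or near the floor and below the minimum count, so no fold is given. The call for Krt7 was lost without any one library, that for Krt18 without siNT replicate 1 (-1.16), siNT replicate 2 (-1.19) or siCnot1 replicate 2 (-0.79), and that for Tead4 without siNT replicate 1 (-0.53). The summed trophectoderm level was 82.2 and 84.3 normalized CPM in siNT and 54.0 and 58.6 in siCnot1.

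Of 8 mesendoderm markers, 5 were tested, with 1 higher, 0 lower and a median of 0.21. That median was -0.035 without siNT replicate 1 and 0.562 without siCnot1 replicate 1. Brachyury was at 0 in all 4 libraries, and the summed level of the list was 5.07 and 4.56 normalized CPM in siNT against 6.29 and 6.09 in siCnot1. Cxcr4, a chemokine receptor gene, rose from 49 and 38 counts to 115 and 100 (1.20, SE 0.29), a call that was lost without siNT replicate 1 (1.40), siNT replicate 2 (1.02) or siCnot1 replicate 1 (1.09). Among the ESC markers the largest falls were in Prdm14 (-0.67, SE 0.08), Tdgf1 (-0.45, SE 0.06) and Tbx3 (-0.33, SE 0.06), all of which held without any one library. The part that a change in the makeup of the cultures had in the rise of Pdgfra and Dab2 was not tested.

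**Figure D4:**
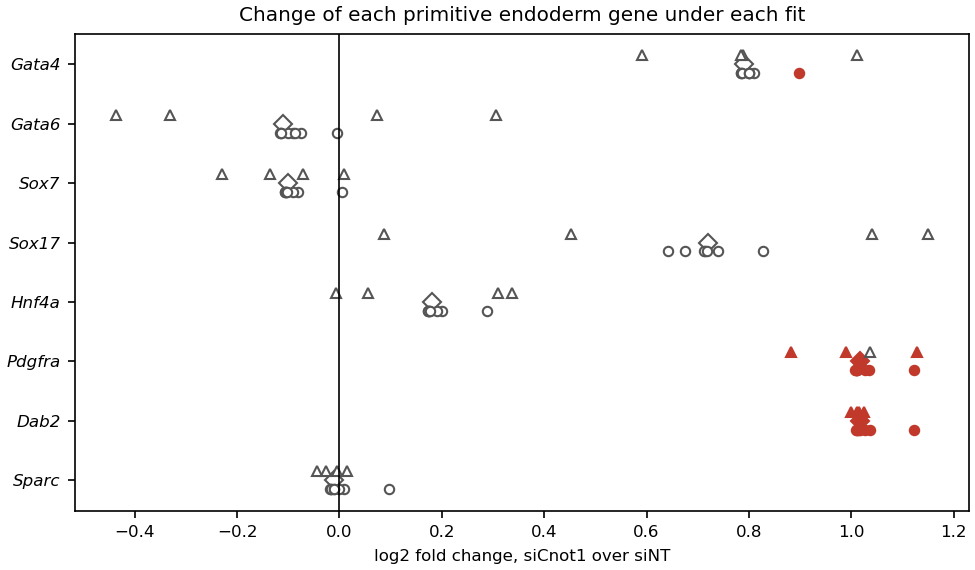
Log2 fold change of each primitive endoderm gene tested under each fit. Diamonds are the values reported, circles are other scalings, filters and tools, and triangles leave out 1 library. Red marks passed an adjusted p of 0.05. Dab2 passed in all 13 fits and Pdgfra in 12, Gata4 in 1, and the other genes in 0.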

How the data were processed

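Poly(A)+ RNA from siNT and siCnot1 ESCs was sequenced as paired 150-base reads with a dUTP strand mark, and the study's methods describe 2 independent biological replicates per group. The submitters' processing notes name fastp 0.19.4, HISAT2 2.2.1, DESeq2 1.40.2 and mm10, although the positions listed are not those of GRCm38 and were taken as GRCm39. The counting tool and its strand setting are not given in the sources used here. The authors deposited 1 table of raw counts per gene, with exon positions and lengths.

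Those counts were tested with edgeR 4.0.16 (R 4.3.3): genes kept by filterByExpr with a minimum count of 10, TMM factors, a quasi-likelihood fit with group as the only term, and Benjamini-Hochberg adjustment over 18144 genes. SE was taken from the F statistic of each gene. Normalized CPM used TMM factors, and TPM used the listed exon lengths. Scripts were tested on simulated data. Alternatives were other scalings and filters, DESeq2 1.42.0, limma-voom 3.58.1, a replicate block and leaving out each library. The 9 genes and the other lists were chosen with earlier results of these data known. From each list at most 3 genes that rose and 3 that fell were named, by largest change among those called with the same direction in both same-numbered pairs, and further genes were named after their values were seen. Intervals and floors cover counting error or the spread of these libraries only. Likeness to other genes was not ranked, since 4 libraries in 2 groups leave many genes tied. Some genes of the FGF list enter its counts and median but are not reported here by name.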

Additional observations from a re-analysis of the deposited data

How the results depend on the processing

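Among the sparse genes, the intervals of Gata4 and Sox17 included changes as large as those of Pdgfra and Dab2, whereas those of Gata6, Sox7 and Hnf4a did not. The counts of genes called by adjusted p fell when 1 library was left out, whereas those by the study's thresholds stayed at 829 to 1080 higher and 247 to 381 lower. Over all genes tested, same-numbered libraries did not deviate together (correlation of deviations 0.0109). That correlation cannot show whether some genes shared a batch by replicate number. With the replicate block Dab2 stood at 1.02 (adjusted p = 0.00024) and Pdgfra at 1.01 (adjusted p = 0.000638), and among the genes named only Dab1 lost its call, at 0.286 (adjusted p = 0.0521).

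With library totals the median of all genes moved from 0.0084 to 0.115. Gata4 then passed at 0.897 (adjusted p = 0.0387), Sox7 turned to 0.0058 and Sparc to 0.096, and 1567 genes were called lower. Of the other genes named, Krt19, Nid1, Apom, Mttp and Map2k1 lost their calls under it. DESeq2 did not call Plat, Krt19, Apom, Mttp or Dab1 and gave no adjusted p for Krt7, and limma-voom did not call Krt19, which upper-quartile scaling also lost together with Mttp. With no minimum count, Pth1r, Plat, Krt19, Nid1, Cubn, Apom, Mttp, Fgfr1, Map2k1, Dab1, Krt7, Krt18 and Col5a1 were not called. Sparc was 0.0083 with upper-quartile scaling. When sparse genes were kept in, 1303 genes were called higher and 1450 lower, and the median of the 9 genes then tested was 0.713. With at least 1 CPM in 2 libraries 729 genes passed the study's thresholds upward and 186 downward, and the median of the 7 genes left was 0.191. In CPM, without length, Sparc stood 87.6 times above the next gene in siNT. The cause of these shifts was not tested beyond the change in genes tested or in scaling.

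Leaving out 1 library at a time gave ranges of -0.437 to 0.305 for Gata6, -0.23 to 0.0099 for Sox7, 0.088 to 1.15 for Sox17, -0.0072 to 0.338 for Hnf4a, -0.043 to 0.014 for Sparc and 0.882 to 1.129 for Pdgfra, whose call was lost without siNT replicate 1. Members called higher ranged from 1 to 2 by adjusted p and from 1 to 3 by the study's thresholds, where Gata4 joined without siNT replicate 1, genes called higher from 743 to 1444 and lower from 871 to 1469, and the members' median from 0.081 to 0.66.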
